A study of Drosophila melanogaster with 48 samples.

Results

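The 10 enzymes that carry glucose from hexokinase to enolase (Hex-A, Pgi, Pfk, Ald1, Tpi, Gapdh1, Gapdh2, Pgk, Pglym78 and Eno) were read out of all 16185 genes measured in fly gut and fat body. Each was found by matching its FlyBase symbol to a gene identifier, and no measured value entered that match. The list itself was chosen with earlier results of these data known. All 10 were listed in all 6 tables of the series, 1 table for each of 3 genotypes in each of 2 tissues. The flies were mated adult females in an outbred background that carries a white mutation, and all of them carried the S106 driver, a GeneSwitch line that drives transgenes in gut and fat body when RU486 is fed. S106>Xbp1s carried a transgene for the spliced, active form of Xbp1, a transcription factor of the unfolded protein response. S106>Xbp1U carried an unspliceable form, and S106>Wdah carried the driver with no transgene. Flies were kept with RU486 (RU+) or with vehicle (RU-) for 7 days and dissected on day 9, and a library pooled the guts or fat bodies of 12 flies. The labels list 48 libraries in 12 groups of 3 to 5.

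Each value below is the authors' mean normalized count over the RU+ and RU- libraries of 1 genotype and tissue, which is 6 to 10 libraries. It holds fed and unfed flies together, so it describes a tissue and a genotype and not the effect of RU486. The spread between libraries cannot be read from a mean, and no test was made on these values. The 3 genotypes, whose libraries are separate, give the only spread available. A level is a gene's mean count divided by the sum of its table and multiplied by 1000000, written CPM. Triplets of values follow the order S106>Wdah, S106>Xbp1s, S106>Xbp1U.

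Glycolysis splits glucose into a pair of triose phosphates and oxidises them toward pyruvate, with a small yield of ATP and NADH. Hexokinase traps glucose in the cell, phosphofructokinase is the classic control point, aldolase makes the split, and glyceraldehyde 3-phosphate dehydrogenase carries out the oxidation. The fly gut absorbs dietary sugar. The fat body, which combines tasks of liver and adipose tissue, turns sugar into trehalose, the main blood sugar of insects, and into glycogen and fat. Its hexose phosphates therefore serve several routes besides the path to pyruvate.

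The labelled tissues carried their markers. A list of gut genes (digestive proteases, maltase, amylase and others, 10 of 11 listed in every table) summed to between 54439 and 70857 CPM in gut and between 153 and 664 CPM in fat body. The yolk protein gene Yp1 stood between 20012 and 33323 CPM in fat body and between 174 and 506 CPM in gut. On the fat body list to, tobi and Npc2d went the other way and were higher in gut, and Lsp2 was at most 3.65 CPM in both. Fat bodies were taken with the abdominal cuticle. Markers of oenocytes summed to between 28114 and 42874 CPM there, against 82.6 to 316 in gut. Hemocyte markers summed to between 118 and 192 CPM in fat body and 13.9 to 16.7 in gut. Malpighian tubule markers overlapped between tissues and differed between the genotypes in gut, at 188, 40.4 and 132 CPM, against 89.1, 126 and 161 in fat body. Eggshell and germline markers summed to between 1095 and 1611 CPM in fat body and 5.11 to 101 in gut. Muscle markers, from a tissue rich in glycolytic enzymes, were present in both. The 18 genes summed to 2608, 2939 and 2579 CPM in gut and 2967, 4820 and 3888 in fat body, with the flight muscle genes Act88F and fln at most 2.22 CPM.

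Within a tissue the 10 enzymes were unequal. Levels of different genes were compared only per kilobase of exonic length, scaled to a table sum of 1000000 (TPM). The length is that of all annotated exons of a gene merged, and the order of genes depends on it. Gapdh2 (FBgn0001092, chromosome X from 15868145 to 15869661), 1 of a pair of genes for glyceraldehyde 3-phosphate dehydrogenase, was the most abundant member in both tissues. Its mean over the genotypes was 429 TPM in gut and 765 TPM in fat body. Without division by length, Ald1 took the largest mean share of the summed counts of the 10. It had 23.3% in gut and 23.6% in fat body, against 19.6% and 17.5% for Gapdh2. Pfk (FBgn0003071, chromosome 2R from 10109740 to 10117457), the phosphofructokinase gene, was the least abundant. It had 16.9 TPM in gut and 35.3 TPM in fat body. In the order of levels in gut, Gapdh2 was followed by Ald1 (193 TPM), Gapdh1 (182), Tpi (161), Pglym78 (136), Eno (109), Pgk (85.8), Pgi (71.5), Hex-A (71.0) and Pfk. The ranges over genotypes of Ald1, Gapdh1 and Tpi ran into each other, as did those of Pgi and Hex-A. Within each genotype Gapdh1 exceeded Tpi in gut, at 189.5 and 153.4, 176.2 and 151.8, and 181.5 and 176.5 TPM. The order of Ald1 against these 2, and of Pgi against Hex-A, changed between genotypes, so these could not be ordered. In fat body the order was Gapdh2, Gapdh1 (502 TPM), Ald1 (393), Tpi (282), Pglym78 (281), Eno (248), Pgi (179), Pgk (174), Hex-A (78.3) and Pfk. There Tpi and Pglym78 overlapped, and so did Pgi and Pgk. Ranked among the 8401 genes that had both a length and a mean count of 10 or more in every table, Gapdh2 lay between percentiles 96.4 and 98.1 of TPM, whereas Pfk lay between 62.1 and 74.9. Every member had a mean count of at least 1289.8, so counting noise was small for all of them. The sources used here do not say whether counting used strand. An antisense RNA overlaps 8.87% of the exonic length of Ald1, and Rrp40, on the opposite strand, overlaps 9.74% of that of Eno, so reads of these pairs cannot be told apart there. For Pgk and Pglym78 the overlap was 3.08% and 0.528%, and the other 6 genes had none.

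**Figure D1:**
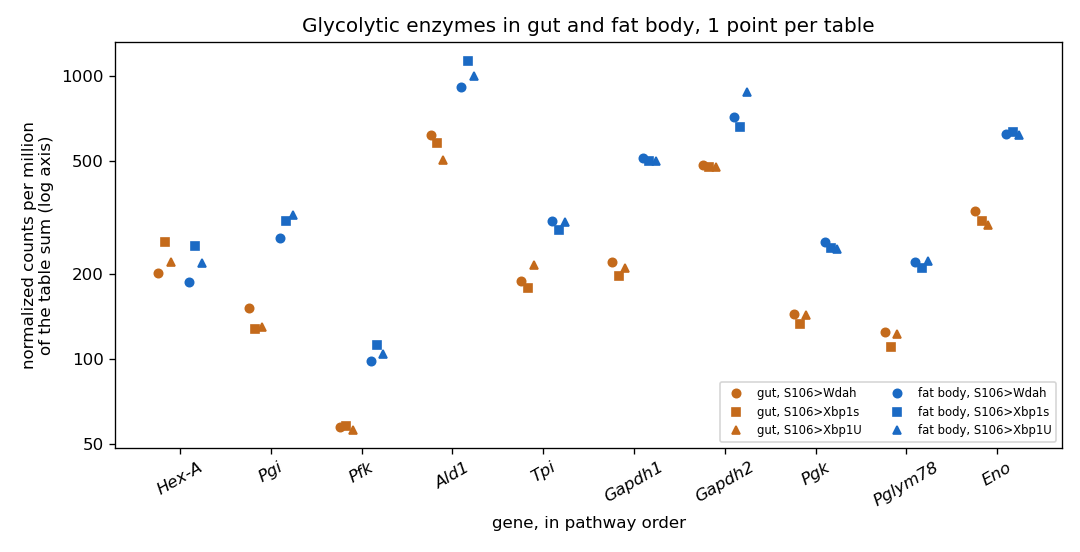
Level of each of the 10 glycolytic enzymes, in normalized counts scaled to a table sum of 1000000 (CPM) on a log axis, with 1 point for each genotype in gut and in fat body and no error bars because the values are means only. The fat body points lie above all gut points for every gene but Hex-A, whose points run from 201 to 259 CPM in gut and from 187 to 251 CPM in fat body.

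Fat body held a larger share of glycolytic transcripts than gut. The 10 enzymes together made up 2526, 2426 and 2377 CPM in gut and 4108, 4341 and 4409 CPM in fat body. The fat body sum was thus 1.63, 1.79 and 1.85 times the gut sum in the 3 genotypes. Of the 10 enzymes, 9 were higher in every fat body table than in any gut table, and Hex-A was the exception. Most genes moved this way on this scale: of the 8408 genes with a mean count of 10 or more in every table, 55.4% were higher in every fat body table, and 19.7% were higher in every gut table. The median gene had a log2 ratio of gut over fat body of -0.39, -0.50 and -0.60 in the 3 genotypes. After that was subtracted, the log2 ratio of the summed enzymes was -0.31, -0.34 and -0.29, against a mean of -0.81 before. With size factors that set the median gene level across tables, 7 of 10 enzymes were higher in every fat body table (35% of all genes) and 1 of 10, Hex-A, was higher in every gut table (34.5% of all genes). Tpi and Gapdh2 then overlapped between tissues. The muscle marker sum was higher in fat body in CPM, 1.14, 1.64 and 1.51 times the gut sum. After the ratio of the median gene was subtracted, the log2 ratio of the muscle sum disagreed in sign (0.21, -0.21 and 0.01). The part of muscle in the differences of the enzymes was not tested. Of 15 muscle genes counted, 7 were higher in every fat body table, 1 in every gut table, and 7 overlapped. In pooled tissue, fewer cells of a type and less RNA per cell cannot be told apart.

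The first steps divided into a flat member and several that were higher in fat body. Hex-A (FBgn0001186, chromosome X from 9585675 to 9589813), a hexokinase that phosphorylates glucose, stood at 201, 259 and 220.4 CPM in gut and at 187, 251 and 219 in fat body. The tissues overlapped, and within each genotype gut and fat body were almost level, with log2 ratios of 0.10, 0.05 and 0.01. The side on which Hex-A fell depended on the scale: its mean log2 of gut over fat body was 0.05 in CPM, 0.55 relative to the median gene and -0.13 per kilobase. Pgi (FBgn0003074, chromosome 2R from 8910900 to 8914069), the isomerase that turns glucose 6-phosphate into fructose 6-phosphate, had 151, 127 and 129.7 CPM in gut and 268, 307 and 322 in fat body. Its groups lay far apart, a mean fold of 2.20 in favour of fat body. This was among the wider gaps of the 10, and after the ratio of the median gene was subtracted the mean log2 ratio of gut over fat body was -0.64.

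Pfk, which commits sugar to glycolysis, had 57.4, 57.9 and 56.4 CPM in gut and 98.2, 112 and 104 in fat body. The gut genotypes were almost the same, and the fold toward fat body was 1.83. For Ald1 (FBgn0000064, chromosome 3R from 26254069 to 26261591), the aldolase that splits the hexose, gut levels were 619.8, 580.1 and 507 CPM and fat body levels 912, 1132 and 998. No gut value reached the lowest fat body value, and the fold was 1.78. Tpi (FBgn0086355, chromosome 3R from 30132981 to 30134599), which interconverts the triose phosphates, had 188, 178 and 215 CPM in gut and 307, 287 and 305 in fat body. It was 1.55 times higher in fat body, but after the ratio of the median gene was subtracted its log2 ratios of gut over fat body disagreed in sign (-0.31, -0.19 and 0.10).

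**Figure D2:**
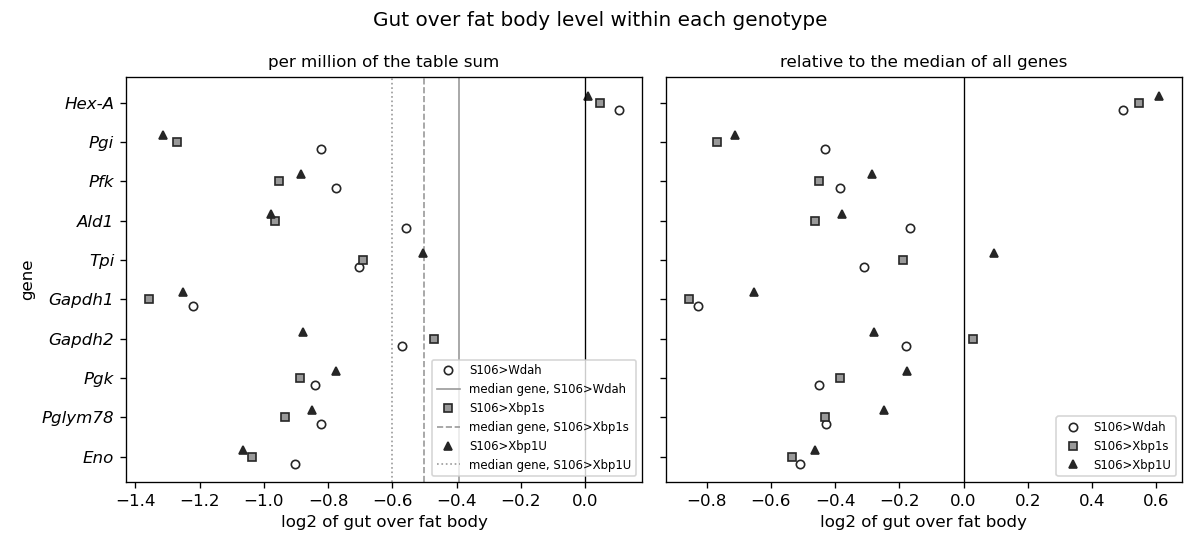
Log2 of gut over fat body level of each glycolytic enzyme, 1 point per genotype, from CPM (left, with the median of 8408 genes as grey lines) and relative to that median (right). Hex-A lies to the right of 0 in both panels, Gapdh1 lies farthest to the left on average, with a mean of -0.78 relative to the median gene, and Tpi and Gapdh2 straddle 0 in the right panel.

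The oxidation step was served by a pair of genes that differed. Gapdh1 (FBgn0001091, chromosome 2R from 7791901 to 7793380) had 221, 196 and 209.8 CPM in gut and 515, 502 and 499 in fat body. That was 2.42 times more in fat body, the widest gap among the 10. Gapdh2 had 484, 476 and 476 CPM in gut and 718, 660.0 and 875 in fat body, a fold of 1.56. After the ratio of the median gene was subtracted, the log2 ratio of gut over fat body of Gapdh1 was -0.83, -0.85 and -0.65, and that of Gapdh2 was -0.18, 0.03 and -0.28. The ratio of the pair within a table does not depend on how tables are scaled. Per kilobase, Gapdh2 exceeded Gapdh1 2.24, 2.49 and 2.33 times in gut and 1.43, 1.35 and 1.80 times in fat body, and these ranges did not overlap. How reads that fit both genes were counted is not given in the sources used here, so the split of the pair is uncertain to that extent.

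The steps after oxidation resembled each other. Pgk (FBgn0250906, chromosome 2L from 2746880 to 2753068), which makes the first ATP, had 144, 133 and 143 CPM in gut and 259, 247 and 245 in fat body. Pglym78 (FBgn0014869, chromosome 3R from 29148248 to 29149901), the phosphoglycerate mutase, had 125, 110.3 and 123 CPM in gut and 220.0, 211 and 221 in fat body. Eno (FBgn0000579, chromosome 2L from 1724768 to 1729636), the enolase, had 334, 309 and 297 CPM in gut and 624, 633 and 620.4 in fat body. Tissues did not overlap for any of the 3. Their mean folds toward fat body were 1.78, 1.82 and 2.001, and after the ratio of the median gene was subtracted their mean log2 ratios of gut over fat body were -0.34, -0.37 and -0.50.

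As a share of the summed level of the 10 per kilobase, a measure free of table scaling, Gapdh2 was highest and Pfk lowest in both tissues, and 5 of 10 enzymes had ranges that did not overlap between tissues. Gapdh2 took a mean of 29.5% in gut and 26.002% in fat body, with ranges that overlapped, and Pfk 1.16% and 1.2%, also overlapping. Hex-A took 4.195% to 5.69% in gut and 2.33% to 3.09% in fat body. Gapdh1 went the other way, with 12.04% to 12.9% in gut and 16.2% to 17.9% in fat body. Smaller shifts without overlap were seen for Pgi (4.71% to 5.31% in gut, 5.604% to 6.36% in fat body), Eno (7.15% to 7.74% and 7.996% to 8.68%) and Tpi (10.4% to 12.3% and 9.37% to 10.1%). The shares of Ald1, Pgk and Pglym78 overlapped between tissues. Shares are parts of a whole, so a larger share of 1 gene lowers those of others, and the 5 are not separate results. A share among 10 genes has no counterpart over all genes to set beside this count.

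**Figure D3:**
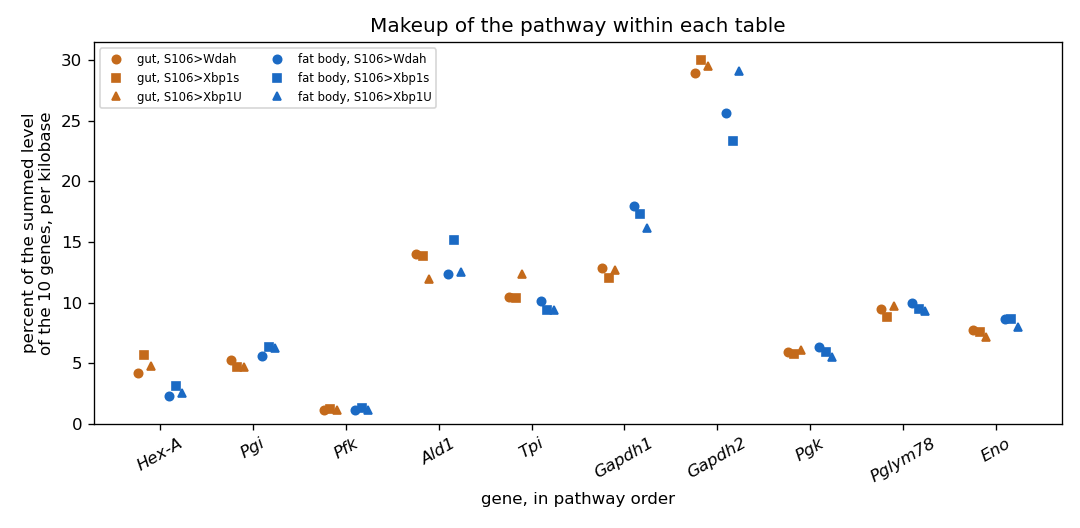
Share of each enzyme in the summed level of the 10 per kilobase, in percent from 0, with 1 point for each genotype in gut and in fat body and no error bars. Gapdh2 is highest and Pfk lowest in every table, Hex-A takes a larger share in gut, and Gapdh1 a larger share in fat body.

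Closely related genes for the same steps had few reads in these tissues, with 1 exception. Hex-C, another hexokinase, had 71.2, 56.9 and 61.2 CPM in gut and 281, 327 and 336 in fat body, a mean fold of 4.99. Per kilobase, Hex-A exceeded Hex-C in gut 1.02, 1.64 and 1.299 times, whereas in fat body it reached only 0.241, 0.277 and 0.235 times its level. The tissues thus differed in which hexokinase transcript was more abundant, with S106>Wdah gut close to parity. Hex-t1, Hex-t2, Ald2, Pglym87 and CG9010 had mean counts under 1 in all 6 tables, and CG9961 stayed under 10. CG7059 had 17.1 to 136 counts and no tissue pattern.

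The enzymes that make pyruvate or take it onward differed from gene to gene. Of 9 genes counted, 5 were higher in every fat body table and 1 in every gut table in CPM (3 and 3 with size factors). As shares these were close to those of all genes, 55.4% in CPM and 35% with size factors for fat body. PyK, the pyruvate kinase that completes glycolysis, had 379, 409 and 354 CPM in gut and 648, 785 and 775 in fat body, and its mean fold of 1.93 was like that of Eno. Ldh, which reduces pyruvate to lactate, was the reverse: 46.6, 69.8 and 57.7 CPM in gut and 18.01, 23.4 and 19.2 in fat body. Gpdh1 makes glycerol 3-phosphate and, like Ldh, regenerates NAD+ for the oxidation step. It had 419, 448 and 435 CPM in gut and 892, 1398 and 1159 in fat body. Per kilobase, Gpdh1 exceeded Ldh 3.95 to 5.54 times in gut and 30.5 to 37.1 times in fat body. PCB, which carboxylates pyruvate, and Pdk, the kinase that switches pyruvate dehydrogenase off, were higher in fat body by mean folds of 3.89 and 3.15. Pdha and Pdhb, subunits of pyruvate dehydrogenase itself, had mean log2 ratios of gut over fat body of -0.07 and 0.65 after the ratio of the median gene was subtracted.

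Several genes of glycogen storage differed more between tissues than any of the 10 enzymes. Of 6 glycogen and trehalose genes counted, 5 were higher in every fat body table and 1 in every gut table on both scales. Over all genes these shares were 55.4% and 19.7% in CPM, and 35% and 34.5% with size factors. Pgm1, which links glucose 6-phosphate to glycogen, had 117, 79.5 and 107 CPM in gut and 792, 969 and 1085 in fat body, a mean fold of 9.44. UGP, which makes UDP-glucose, differed 12.3 times and the glycogen branching enzyme gene AGBE 6.69 times. Glycogen phosphorylase (Glyp) and synthase (Glys) were 3.16 and 2.87 times higher in fat body. Treh, which cleaves trehalose into glucose, was the gut gene of the list, with 509, 712 and 583 CPM in gut and 187, 334 and 291 in fat body. Tps1, which makes trehalose, had 2771, 3885 and 3230.2 CPM in fat body. In gut it was listed for S106>Wdah only, at 113 CPM. The study took genes that responded to RU486 in the driver-alone control out of its later analysis. Gut of S106>Xbp1s and of S106>Xbp1U listed 16161 genes, against 16185 for S106>Wdah. The missing values therefore do not show that Tps1 was undetected there. All 5 counted genes of the glycerol 3-phosphate and gluconeogenesis list were higher in every fat body table in CPM (55.4% of all genes). With size factors 4 were (35% of all genes). The fructose bisphosphatase gene fbp, which runs the Pfk step backward, led the list with a mean fold of 7.56. Pfrx, whose product makes an activator of phosphofructokinase, had 3.26.

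**Figure D4:**
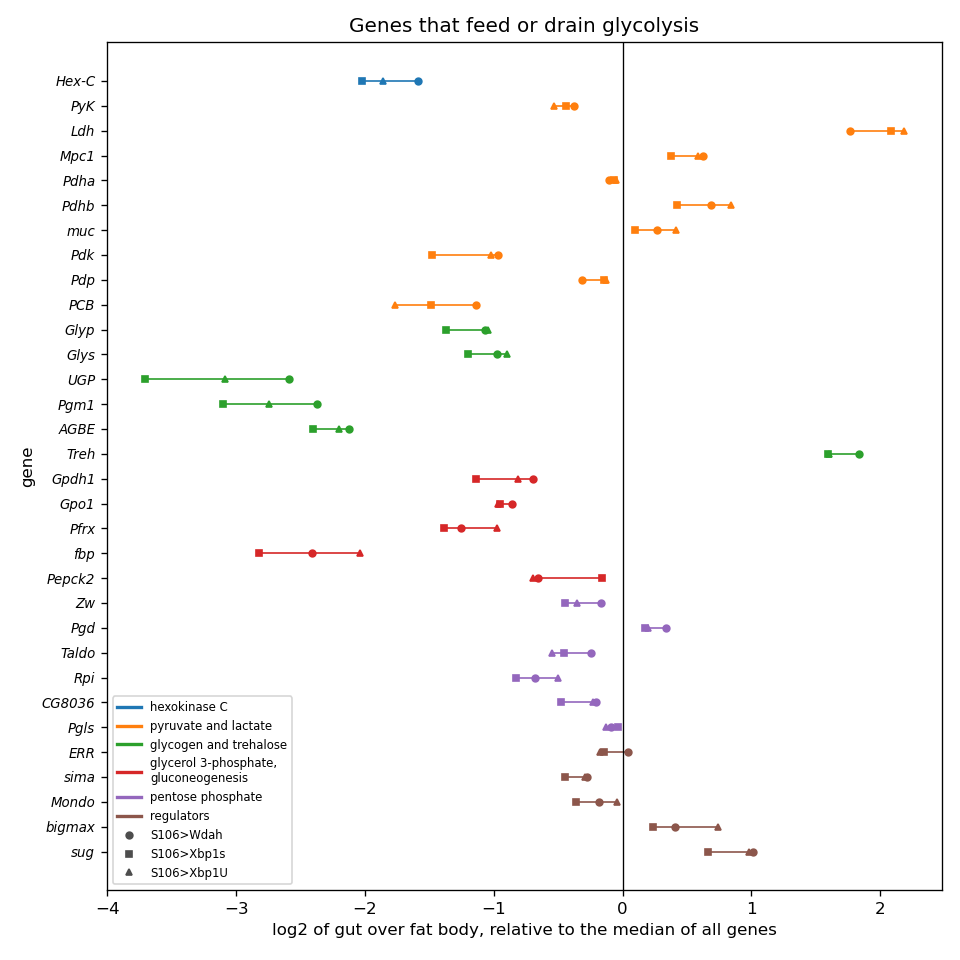
Log2 of gut over fat body level relative to the median of 8408 genes, for genes around the 10 enzymes, with 1 point per genotype joined by a line and colours for the gene lists; CG7059 and genes under the count minimum are left out. Ldh and Treh lie farthest to the right, at means of 2.01 and 1.68, and UGP and Pgm1 farthest to the left, at -3.13 and -2.74.

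Across genotypes within a tissue the enzymes varied little. The highest genotype exceeded the lowest by 1.02 to 1.29 times in CPM in gut and by 1.02 to 1.34 times in fat body. The median ratio of the 10 was 1.13 in gut and 1.105 in fat body, against 1.26 and 1.32 over the 8408 genes and 1.21 and 1.28 over 1585 genes whose mean count reached 1000 in every table. In gut 9 of 10 enzymes and in fat body 8 of 10 (9 with size factors) varied less than the median gene. Hex-A varied most in both tissues, and it was highest in S106>Xbp1s and lowest in S106>Wdah in each. With size factors this order held, at 1.37 times in gut and 1.31 times in fat body. Gapdh2 in fat body was highest in S106>Xbp1U, 1.33 times S106>Xbp1s. Genotypes were compared as means of fed and unfed flies, and the spread within a genotype was not known. When the libraries of each genotype were made is not given in the sources used here. A difference between genotypes therefore cannot be told apart from a difference between sets of libraries. Transcripts of the mitochondrial genome also differed between genotypes, with 21.8% of the S106>Wdah fat body sum against 7.11% and 10.1% in the others, and their part in the order of genotypes was not tested beyond the change of scale.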

How the data were processed

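Per the labels and the study's methods, polyA RNA reads were aligned to dm6 with HISAT2, counted over exons per gene (annotation r6.47) with featureCounts and compared with DESeq2; tool versions are not given in the sources used here. The study removed 4 libraries that clustered apart. The signal deposited by the authors and used here is the mean over a comparison's libraries of counts divided by size factors, which were set within each table. Table sums ran from 2.25e+07 to 2.51e+07. The other deposited columns (fold changes, standard errors, statistics and p-values of RU+ against RU-) are the authors' own comparison and were not used, and no value of a single library was analysed.

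Means were divided by the table's sum (CPM), or by size factors computed as the median ratio to the geometric mean over 8408 genes whose mean reached 10 in all 6 tables. Exonic lengths, symbols and coordinates came from BDGP6.54 (Ensembl release 115, dm6 coordinates), in which all 10 enzymes had a length. Groups were called apart when all 3 tables of a tissue exceeded all 3 of the other. As tables were normalized separately, no test was made across them. Functions were tested on simulated data. The enzymes and lists were chosen with earlier results of these data known. Genes named are the members, the lists and the 5 genes most like the summed members over the 6 tables, taken from genes whose mean reached 100 (smallest root mean square difference of centred log2 levels). Pepck1, on the gluconeogenesis list, was not analysed here. Alternatives were other scalings and leaving out a genotype. Python 3.11.15 was used with numpy 2.4.6, pandas 2.3.3 and matplotlib 3.10.9.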

Additional observations from a re-analysis of the deposited data

How the results depend on the processing

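The mean log2 ratio of gut over fat body of the summed enzymes was -0.81. It was -0.31 with size factors across tables and -1.01 per kilobase, and other denominators, including one without mitochondrial genome transcripts that was chosen after the data were seen, left it within the spread of genotypes. Leaving out a genotype gave -0.87 to -0.77. The count of enzymes higher in every fat body table, 9, was 7 with size factors, and that of enzymes higher in every gut table, 0, was 1. With a genotype left out the counts stayed at 9 and 0. Leaving out a genotype can only keep or raise such a count, so this is no check of stability. The change with size factors follows from their construction, which moves the median gene to about 0. With no count minimum, 50.5% of genes were higher in every fat body table. No paired analysis was possible because the tables hold no single libraries. Depth does not limit the members. The absence of values for single libraries does: a difference between genotypes cannot be set against replicate error.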

Other observations

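The pentose phosphate branch, which draws glucose 6-phosphate into NADPH and ribose production, was also higher in fat body in CPM. Its 6 genes were all higher in every fat body table (55.4% of all genes in CPM). With size factors 4 were (35% of all genes), and Pgd alone was higher in every gut table (34.5% of all genes). The summed level of the 6 genes was between 886 and 1049 CPM in gut and between 1496 and 1627 in fat body, a mean fold of 1.65. After the ratio of the median gene was subtracted, the log2 ratio of gut over fat body of this sum was -0.12, -0.32 and -0.23. Rpi had the widest gap, 2.25 times. Among regulators of sugar metabolism, sima was 1.79 times higher in fat body in CPM and higher in every fat body table on both scales. Mondo was 1.62 times higher in CPM but overlapped between tissues with size factors, and bigmax overlapped on both. ERR, which activates glycolytic genes in fly larvae, was 1.51 times higher in CPM and overlapped between tissues with size factors. The sugar-responsive gene sug had 166, 244 and 199.9 CPM in gut and 108, 218 and 153 in fat body and overlapped in CPM, but was higher in every gut table with size factors.

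The 5 genes whose levels over the 6 tables were most like those of the summed enzymes, among 6008 genes outside the lists, were pcx, Aprt, Ubr3, CG2875 and CG11180. Their centred log2 levels differed from the sum by a root mean square of 0.028 to 0.037. All 10 enzymes followed their own sum less closely, with values from 0.055 for Pfk to 0.46 for Hex-A. The 5 genes were picked for the smallest difference and the enzymes were not, so nothing is read from this contrast. The likeness is over 6 values only and was not tested.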
